A study of Mus musculus with 6 samples.

Results

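The genes described here are 33 enzymes and transporters that take glucose up, split it to pyruvate, turn pyruvate into lactate, export the lactate, or run the pentose phosphate pathway. They were chosen by gene symbol from the 23282 gene rows of the deposited tables, with no measured value in the rule, and symbols are written in capitals as in those tables. All 33 had a row, and 32 had enough reads to be tested, the exception being ENO1. RNA came from cultured murine astrocytes of an Ink4a-/- line, called Ink4a/Arf-/- in the study, which lack a tumor suppressor locus, so that every library shares this deletion. The control group (3 libraries) carried the empty vector pcDNA3.1-puro and the JAG1-overexpressing group (3 libraries) carried pcDNA3.1-JAG1-puro, a plasmid for the Notch ligand JAG1 driven by the strong viral promoter of this vector. The labels give the control genotype as WT, which was read as without the JAG1 plasmid. The sources used here do not tell separate transfections from repeat samples of 1 selected population, so p-values measure the spread between these libraries, which may be technical.

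Glycolysis converts glucose to pyruvate in the cytosol and yields ATP and NADH. Lactate dehydrogenase regenerates NAD+ by reducing pyruvate to lactate, which leaves the cell through monocarboxylate transporters. The pentose phosphate pathway branches off at glucose 6-phosphate, its oxidative arm makes NADPH and its non-oxidative arm exchanges sugar phosphates with glycolysis. Astrocytes are known as a glycolytic cell type of the brain that releases lactate. Many steps are encoded by several genes whose products differ in kinetics or regulation, so the genes were compared isoform by isoform.

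Reads counted on genes numbered between 14341634 and 20489062 per library, and 3 reads, taken as the limit of detection, corresponded to 0.148 to 0.206 counts per 1e6 counts (CPM). Values below are CPM normalized by the trimmed mean of M values (TMM), with the SD over 3 libraries, and tests are two-sided edgeR quasi-likelihood tests with Benjamini-Hochberg adjustment over 11712 tested genes. JAG1 itself rose from 10.3 ± 1.18 to 14.2 ± 0.862 CPM (log2 fold change 0.46, SE 0.11, adjusted p = 0.00446, edgeR), and whether reads from the plasmid fall on this row is not given. The median log2 fold change of all tested genes was 0.00, but that of chromosome 19 was 0.61 (422 genes) and that of chromosome 15 was -0.53 (459 genes). Of 9 astrocyte markers, 5 were tested and all 5 were lower with JAG1, GFAP and AQP4 had 0 reads in all 6 libraries, and the summed level of the 9 ranged from 334 to 397 CPM in control and from 123 to 136 CPM in JAG1-overexpressing libraries. The markers of fibroblasts and mural cells summed to 625 to 633 and 211 to 243 CPM, with 4 of 5 tested, 4 lower and LUM at 0, and those of neurons to 76.4 to 84.5 and 8.05 to 9.11 CPM, with 2 of 5 tested, 2 lower, and SNAP25 and SYT1 at 0. The markers of oligodendrocytes, microglia and endothelial cells summed to at most 3.97 CPM in any library, with MOG, MAG, SOX10 and TEK at 0. Of these, 1 of 5, 2 of 6 and 0 of 4 genes were tested, and microglial CX3CR1 was higher and TMEM119 lower with JAG1. The part of these markers in the changes below was not tested, and in bulk RNA fewer cells of a type and less RNA per cell cannot be told apart.

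Most steps of the sugar-splitting pathway were higher in RNA with JAG1, while the minor isoforms of several steps and PGD of the pentose phosphate pathway were lower. Of the 32 tested genes, 18 rose, 9 fell and 5 were not called at an adjusted p of 0.05. Among all tested genes 55.1% were called, 27.4% as higher and 27.7% as lower, against 56.2% and 28.1% of these genes. The values with JAG1 were all above those of control for 18 of the 32 genes and all below for 9, where the shares over all tested genes were 31.1% and 30.9%, and 62.0% for either direction. The median log2 fold change of the 32 was 0.26, between -1.68 for ALDOC and 4.39 for SLC2A3. At a fold of at least 2, SLC2A3 and LDHA were higher and ALDOC and PFKFB3 were lower, where 5.46% of all tested genes were higher and 8.49% lower. Most changes were therefore moderate in size, and with 3 libraries per group an exact permutation test of any single value cannot give a two-sided p under 0.1.

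**Figure D1:**
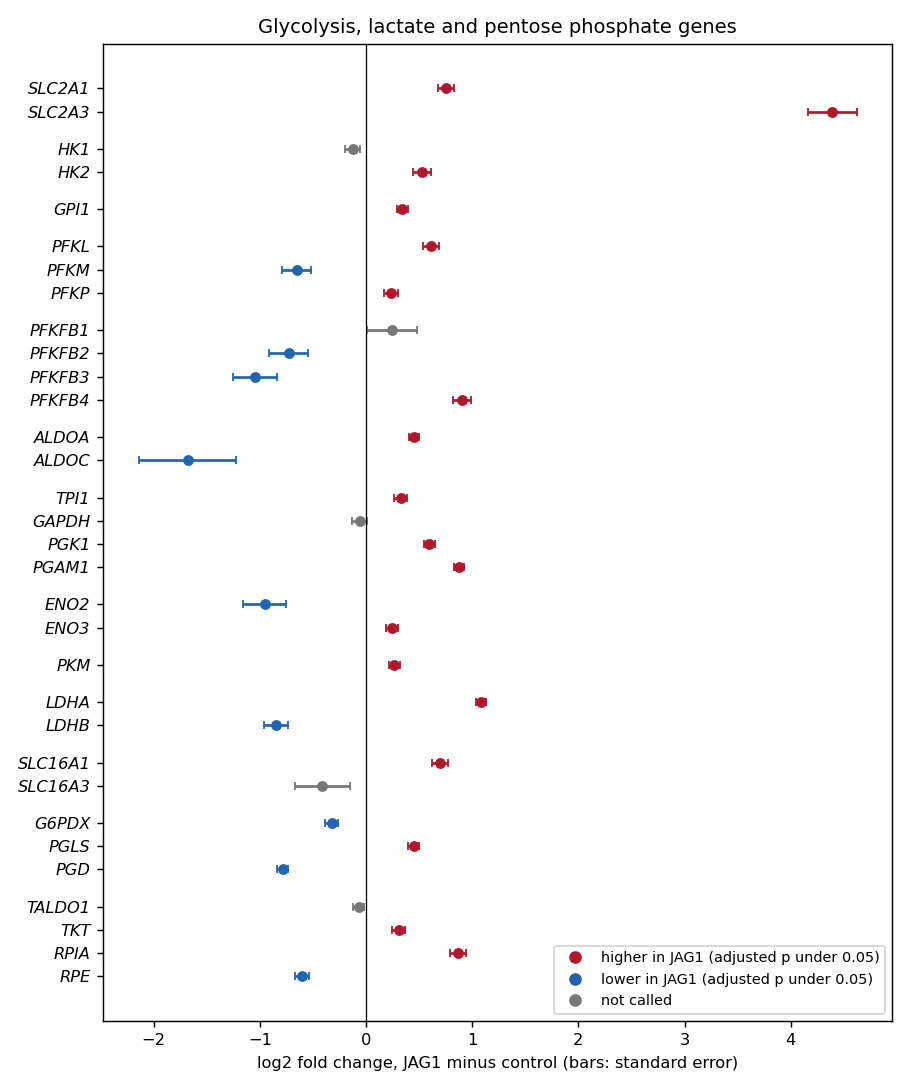
Log2 fold change of each of the 32 tested genes (points, JAG1 minus control) with its standard error (bars), in pathway order and coloured by the edgeR call. The points run from -1.68 for ALDOC to 4.39 for SLC2A3, with 18 genes higher, 9 lower and 5 not called.

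The levels, which QuantSeq reads from transcript 3' ends and which therefore do not grow with transcript length, placed PGD, PKM and LDHA at the head of the 33 genes in control libraries, in that order. In JAG1-overexpressing libraries the order was LDHA, PKM and PGD. Summed over the 22 genes from hexokinase to lactate dehydrogenase, the level was 2312 ± 36.5 CPM in control and 3333 ± 61.7 CPM in JAG1-overexpressing libraries, a ratio of 1.44 with no overlap (exact permutation p = 0.1, n = 3). Within this sum LDHA alone went from 402 ± 9.20 to 853 ± 10.9 CPM. PGAM1, on chromosome 19, went from 176 ± 3.61 to 322 ± 1.94 CPM. The sum includes GAPDH, whose values are uncertain, and leaves out ENO1B, a near copy of ENO1. The 7 pentose phosphate genes summed to 1677 ± 58.9 CPM in control and 1394 ± 38.1 CPM with JAG1, a ratio of 0.831, again with no overlap (exact permutation p = 0.1, n = 3). This lower sum came from PGD, and the other 6 genes summed to 831 ± 22.1 and 903 ± 40.8 CPM, a ratio of 1.09 with no overlap (exact permutation p = 0.1, n = 3). Of the 7, PGLS, TKT and RPIA rose, PGD, G6PDX and RPE fell, and TALDO1 was not called.

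Glycolysis genes are textbook targets of HIF and MYC, so promoter stretches of 8 genes are shown for reference, of genes that rose (SLC2A1, PGK1, PGAM1, LDHA and SLC16A1) and of genes that fell (PFKFB3, LDHB and PGD), chosen with their changes known. Binding was not measured. Promoter sequences came from RefSeq (GRCm38.p6), run 5′ to 3′ on the strand of the gene and end before 1 annotated transcript start. LDHA, PFKFB3 and PGD have 2 such starts each, and the one whose window holds more cores is shown. For LDHA and PFKFB3 that start lies inside the span of the gene. Capitals mark ACGTG or GCGTG, the core letters of the hypoxia response element bound by HIF, read on both strands (CACGT and CACGC are the same letters on the opposite strand). CACGTG, the E-box bound by MYC and by carbohydrate-responsive factors, contains ACGTG on both strands and so appears within the capitals.
SLC2A1, chr4:119108664-119108733, plus strand: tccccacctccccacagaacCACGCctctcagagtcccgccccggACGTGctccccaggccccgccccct
PGK1, chrX:106186930-106186993, plus strand: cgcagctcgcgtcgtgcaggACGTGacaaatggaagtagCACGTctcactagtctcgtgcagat
PGAM1, chr19:41911676-41911807, plus strand: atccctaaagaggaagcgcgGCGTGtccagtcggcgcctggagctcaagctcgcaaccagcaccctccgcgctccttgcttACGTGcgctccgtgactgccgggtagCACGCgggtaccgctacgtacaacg
LDHA, chr7:46845639-46845794, plus strand: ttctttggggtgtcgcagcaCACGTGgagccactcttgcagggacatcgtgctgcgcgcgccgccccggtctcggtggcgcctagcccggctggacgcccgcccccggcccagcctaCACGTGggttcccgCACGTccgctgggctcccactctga
PFKFB3, chr2:11502118-11502232, minus strand: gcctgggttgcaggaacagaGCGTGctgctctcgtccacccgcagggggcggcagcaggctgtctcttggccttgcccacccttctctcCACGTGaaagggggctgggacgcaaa
LDHB, chr6:142508059-142508103, minus strand: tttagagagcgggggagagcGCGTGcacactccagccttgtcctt
SLC16A1, chr3:104638444-104638554, plus strand: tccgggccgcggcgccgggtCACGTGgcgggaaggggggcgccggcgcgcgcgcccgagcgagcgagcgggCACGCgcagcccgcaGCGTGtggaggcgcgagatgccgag
PGD, chr4:149166721-149166765, minus strand: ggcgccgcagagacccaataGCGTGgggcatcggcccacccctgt
Cores were counted on both strands, so that each CACGTG counts as 2 of them. The LDHA stretch holds CACGTG in 2 places and 5 cores in all, the first 145 and the last 34 bases before the start. The stretch of SLC16A1 holds 4 cores, those of PGAM1 and PFKFB3 3 each, those of SLC2A1 and PGK1 2 each, and those of LDHB and PGD 1 each. At the other start, the stretches of LDHA and PFKFB3 hold 1 core each and that of PGD holds 0. Cores were not confined to 1 direction of change. Among genes that fell, whole windows of PFKFB2 and PFKFB3 hold ACGTG 2 times and GCGTG 2 times and one of PFKM holds ACGTG 3 times. In each of these windows 1 CACGTG accounts for 2 of the ACGTG. Among genes that rose, GPI1 and TPI1 hold neither core.

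RefSeq windows from 250 bases before to 50 bases after the start were found for 32 of the 33 genes, all but SLC2A3. ACGTG occurred on either strand in 16 of the 32 genes (50% against 21.8% of 27025 genes in the table), and GCGTG in 23 (71.9% against 35.2%). At least 1 of them occurred in 28 genes (87.5% against 46.7%), namely in 15 of 17 genes that rose and 7 of 9 that fell. Singly, ACGTG occurred in 8 of the 17 and 5 of the 9, GCGTG in 11 and 7, and CACGTG in 2 and 3. CACGTG occurred in 5 genes (15.6% against 8.09%). Genes have between 1 and several windows, and counted by window the share with either core was 76% of 50 against 43.8% of 32851. These are matches of letters only, and no test was made of their shares. The 27025 genes were not limited to genes tested here. They were not matched to the 32 genes in expression or in base composition, so the difference in shares cannot be assigned to the pathway.

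The RNA of both glucose transporters was higher, and glucose uptake was not measured. SLC2A1 encodes GLUT1, the basal glucose transporter of astrocytes and of the blood-brain barrier, and SLC2A3 encodes GLUT3, the high-affinity transporter typical of neurons. SLC2A1 had 32.7, 35.2 and 38.3 CPM in the control libraries and 59.7, 61.9 and 57.3 CPM in the JAG1-overexpressing libraries. The groups did not overlap, and the rise was 1.68-fold (log2 fold change 0.75, SE 0.07, adjusted p = 7.04e-06). An antisense gene, Gm12868, is annotated across its 3' end, and as the use of strand in counting is not given, the reads of the pair cannot be told apart.

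SLC2A3 had 9, 5 and 10 reads in the control libraries, or 0.444, 0.268 and 0.523 CPM, and 161, 146 and 140 reads in the JAG1-overexpressing libraries, or 8.02, 10.0 and 8.50 CPM. It was thus near the limit of detection in every control library and well above it in every JAG1-overexpressing library. It rose 20.996-fold (log2 fold change 4.39, SE 0.23, adjusted p = 3.74e-08, edgeR), the largest change of the 32 genes. It entered the test only through its JAG1-overexpressing libraries, since its control levels were all under the 0.529 CPM needed to pass the filter on low counts. Its share of the summed reads of both transporters went from 1.15% ± 0.338 to 12.9% ± 1.05, so that SLC2A1 still held most of them. Per library this share was 1.34%, 0.758% and 1.35% in control and 11.9%, 13.96% and 12.9% with JAG1 (exact permutation p = 0.1, n = 3).

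Hexokinases trap glucose by phosphorylating it, HK1 as the widely expressed isoform and HK2 as the isoform of muscle, fat and many tumors. HK1 had 112, 99.4 and 97.1 CPM in control and 99.2, 95.6 and 88.2 CPM in JAG1-overexpressing libraries, with overlap between the groups. It was not called (log2 fold change -0.13, SE 0.07, adjusted p = 0.155, edgeR). HK2 had 64.7, 76.1 and 76.4 CPM in control and 115, 94.2 and 103 CPM with JAG1, all above the control libraries. Its rise was 1.44-fold (log2 fold change 0.52, SE 0.09, adjusted p = 0.000346). HK2 made up 36.6%, 43.4% and 44.0% of hexokinase reads in control and 53.6%, 49.6% and 53.9% with JAG1, a gain of 11.1 percentage points that put it level with or above HK1 (exact permutation p = 0.1, n = 3). GPI1, which turns glucose 6-phosphate into fructose 6-phosphate, rose from 156 ± 4.59 to 198 ± 3.02 CPM (log2 fold change 0.34, SE 0.05, adjusted p = 0.000122).

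Phosphofructokinase 1 catalyses the committed step as a tetramer of liver (PFKL), muscle (PFKM) and platelet (PFKP) subunits. PFKP, the most abundant of them, had 50.8, 46.4 and 45.4 CPM in control and 55.8, 55.7 and 56.9 CPM with JAG1 (log2 fold change 0.24, SE 0.07, adjusted p = 0.00997). PFKL had 21.6, 19.2 and 20.1 CPM in control and 30.4, 32.1 and 30.9 CPM with JAG1, a 1.53-fold rise (log2 fold change 0.61, SE 0.08, adjusted p = 5.25e-05). PFKM had 12.5, 16.7 and 17.1 CPM in control and 10.2, 10.5 and 8.75 CPM with JAG1, a 1.57-fold fall (log2 fold change -0.65, SE 0.13, adjusted p = 0.00167). None of the 3 subunits overlapped between the groups. PFKM lies on chromosome 15, whose median shift was -0.53, and minus that median its log2 fold change was -0.12. The step as a whole went from 83.3 ± 1.46 to 97.0 ± 1.08 CPM, a ratio of 1.16.

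In shares, PFKL gained and PFKM lost. PFKL went from 24.4% ± 1.08 to 32.1% ± 0.556 and PFKM from 18.6% ± 3.32 to 10.1% ± 0.912, both with no overlap (exact permutation p = 0.1, n = 3). The share of PFKP was 59.8%, 56.4% and 54.9% in control and 57.9%, 56.7% and 58.9% with JAG1, which overlapped (exact permutation p = 0.7, n = 3). PITRM1 is annotated on the opposite strand across the 3' end of PFKP.

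The 4 PFKFB enzymes make and break fructose 2,6-bisphosphate, the strongest activator of phosphofructokinase 1, and they split in direction. PFKFB4, the most abundant of the 4, had 14.2, 15.2 and 16.1 CPM in control and 28.8, 27.4 and 29.1 CPM with JAG1. It rose 1.87-fold (log2 fold change 0.91, SE 0.08, adjusted p = 3.55e-06). PFKFB3, the isoform with the highest ratio of kinase to phosphatase activity, was scarce and fell, with 3.65, 2.85 and 3.30 CPM in control and 1.74, 1.31 and 1.64 CPM with JAG1. The fall was 2.07-fold (log2 fold change -1.05, SE 0.21, adjusted p = 0.00134).

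PFKFB2, the heart isoform, had 6.91, 8.38 and 5.96 CPM in control and 4.54, 5.02 and 3.28 CPM with JAG1, a 1.66-fold fall (log2 fold change -0.73, SE 0.18, adjusted p = 0.00594). The groups did not overlap, and Gm29427 is annotated on the same strand across its 3' end. PFKFB1, the liver isoform, had 1.599 ± 0.234 and 1.90 ± 0.274 CPM and was not called (log2 fold change 0.24, SE 0.24, adjusted p = 0.408). Among the reads of the 4 genes, PFKFB4 held 53.4%, 54.3% and 60.3% in control and 77.6%, 76.5% and 81.7% with JAG1, a gain of 22.6 points and the largest shift of the 12 shares examined. PFKFB3 dropped from 12.1% ± 1.81 to 4.32% ± 0.578 (exact permutation p = 0.1 for each, n = 3).

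Aldolase cuts fructose 1,6-bisphosphate into triose phosphates. ALDOA, the main isoform of most cells, had 267, 264 and 259 CPM in control and 347, 368 and 365 CPM with JAG1, well apart. Its rise was 1.37-fold (log2 fold change 0.45, SE 0.05, adjusted p = 1.1e-05). ALDOC, the brain isoform and a known astrocyte marker, had only 57, 19 and 27 reads in control and 13, 4 and 11 reads with JAG1, or 2.81, 1.02 and 1.41 against 0.648, 0.275 and 0.668 CPM. The control library with the highest value stood apart from the other two, and the groups still did not overlap. ALDOC fell 3.21-fold (log2 fold change -1.68, SE 0.46, adjusted p = 0.00897, edgeR), and the log2 fold change ran from -1.95 to -1.15 over 15 alternatives. ALDOC exceeded the 0.529 CPM of the low-count filter in all control libraries but not in all JAG1-overexpressing libraries. Its share of aldolase reads was 0.657% ± 0.343 and 0.148% ± 0.0633, so aldolase in these cells was almost wholly ALDOA in both groups. FAM57B is annotated on the opposite strand across the 3' end of ALDOA.

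The triose steps rose together except for GAPDH. TPI1, which interconverts the 2 trioses, had 158, 173 and 178 CPM in control and 202, 222 and 215 CPM with JAG1 (log2 fold change 0.33, SE 0.06, adjusted p = 0.000770). PGK1, the first ATP-forming enzyme, had 149, 145 and 148 CPM in control and 214, 229 and 224 CPM with JAG1, a 1.51-fold rise (log2 fold change 0.60, SE 0.05, adjusted p = 1.81e-06). PGAM1, a phosphoglycerate mutase, had 179.7, 173 and 174 CPM in control and 321, 321 and 325 CPM with JAG1. The libraries of each group lay close together and far from the other group. The rise was 1.84-fold (log2 fold change 0.88, SE 0.05, adjusted p = 3.95e-08), and minus the median of its chromosome, 19, it was 0.27.

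GAPDH, which makes 1,3-bisphosphoglycerate and is often used as a reference gene, had 37.7 ± 2.07 and 36.2 ± 1.29 CPM and was not called (log2 fold change -0.06, SE 0.07, adjusted p = 0.499). Its level was low beside its pathway neighbours. The last 300 bases of its transcript match 120 other genes of GENCODE M21, of which 118 are pseudogenes, at 95% identity or more over at least 100 bases. How the authors counted reads with several matches is not given, so the GAPDH values are uncertain. SPSB2 and IFFO1 are annotated on the opposite strand across the 3' ends of TPI1 and GAPDH.

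Enolase makes phosphoenolpyruvate, with ENO1 as the ubiquitous, ENO2 as the neuronal and ENO3 as the muscle isoform. ENO1 had 1 read in 1 control library and 0 in the other 5, and was not tested. The last 297 bases of its transcript are 99.7% identical to those of ENO1B, a near copy of it, which is no member of the 33 and stands on 2 rows of the tables. The rows had 69.4 ± 1.27 and 70.4 ± 3.96 CPM in control and 86.8 ± 2.73 and 91.6 ± 1.83 CPM with JAG1 (log2 fold changes 0.32 and 0.38, adjusted p = 0.000568 and 0.000298, edgeR). From 3' reads the pair cannot be told apart, so the ENO1 row says nothing about ENO1 transcripts.

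ENO3 had 108, 109 and 101.4 CPM in control and 122, 133 and 124 CPM with JAG1 (log2 fold change 0.25, SE 0.06, adjusted p = 0.00402). ENO2 had 5.88, 4.08 and 4.18 CPM in control and 2.74, 2.20 and 2.31 CPM with JAG1, with no overlap. ENO2 fell 1.94-fold (log2 fold change -0.95, SE 0.20, adjusted p = 0.00191). Of the reads on the ENO1, ENO2 and ENO3 rows, ENO2 held 4.23% ± 0.807 in control and 1.89% ± 0.292 with JAG1, and ENO3 held 95.8% ± 0.788 and 98.1% ± 0.292 (exact permutation p = 0.1 for each, n = 3). These shares leave out the 2 ENO1B rows, which had 69.4 and 70.4 CPM in control and 86.8 and 91.6 CPM with JAG1. They are therefore not shares of all enolase reads.

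PKM, whose splice forms PKM1 and PKM2 share the 3' end read here, had 573, 531 and 539 CPM in control and 641, 694 and 642 CPM with JAG1. It rose 1.20-fold (log2 fold change 0.27, SE 0.05, adjusted p = 0.00127), which says nothing of the balance of its splice forms.

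The lactate dehydrogenase subunits went opposite ways. LDHA, whose product favours the formation of lactate from pyruvate, had 408, 407 and 392 CPM in control and 844, 865 and 851 CPM with JAG1. The 2 groups lay far apart beside their spread. LDHA rose 2.12-fold (log2 fold change 1.08, SE 0.05, adjusted p = 7.04e-09), the smallest p of the 32 genes. LDHB, whose product favours the use of lactate, had 14.4, 13.5 and 13.9 CPM in control and 7.68, 8.74 and 6.86 CPM with JAG1. It fell 1.80-fold (log2 fold change -0.85, SE 0.11, adjusted p = 6.33e-05). The LDHB share of the reads of both subunits was 3.41%, 3.21% and 3.43% in control and 0.901%, 1.00% and 0.800% with JAG1, with no overlap (exact permutation p = 0.1, n = 3). A pseudogene, Gm5514, matches 109 of the last 300 bases of LDHB at 99.1% identity, and no other gene matched the 3' end of LDHA. LDHA lies at chr7:46842274-46855627 and LDHB at chr6:142490249-142507957 (GRCm38.p6).

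Of the lactate carriers, the abundant one rose and the scarce one was not called. SLC16A1 encodes MCT1, which carries lactate in either direction, and SLC16A3 encodes MCT4, the export form of glycolytic cells. SLC16A1 had 61.9, 72.1 and 76.3 CPM in control and 113, 112 and 117 CPM with JAG1. The groups did not overlap and the rise was 1.62-fold (log2 fold change 0.70, SE 0.08, adjusted p = 1.38e-05). SLC16A3 was scarce, with 1.98, 1.503 and 1.88 CPM in control and 1.59, 1.38 and 1.03 CPM with JAG1, and was not called (log2 fold change -0.41, SE 0.26, adjusted p = 0.199). Its share of the reads of both was 2.51% ± 0.532 in control and 1.16% ± 0.262 with JAG1, without overlap (exact permutation p = 0.1, n = 3).

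**Figure D2:**
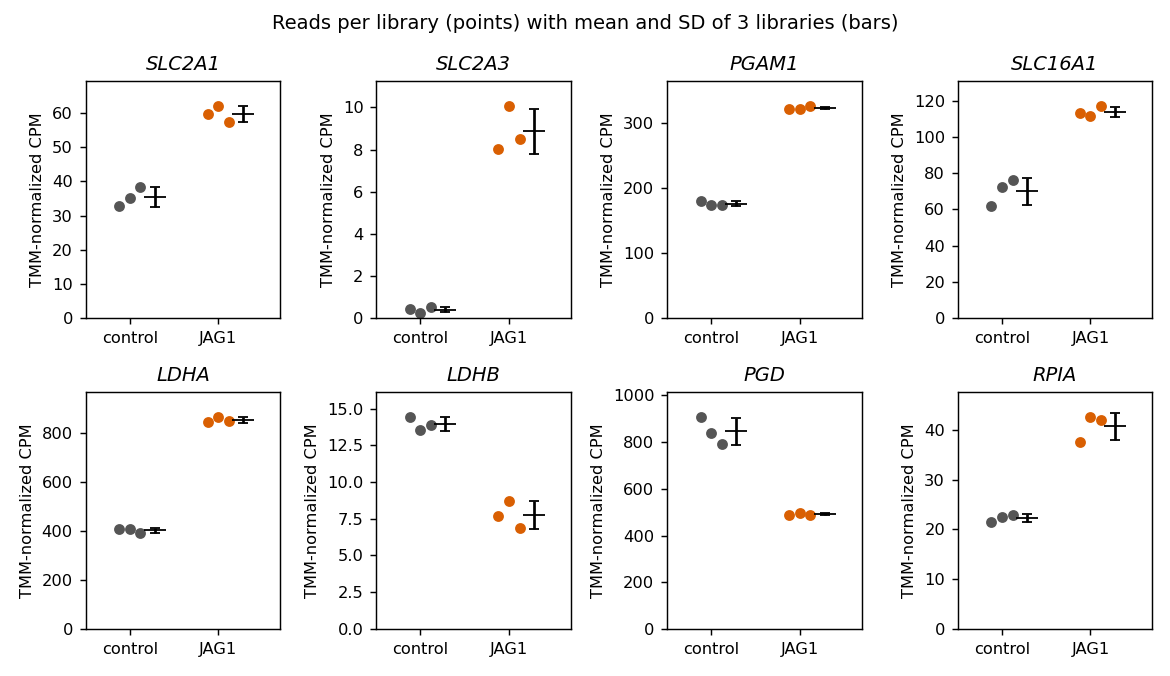
TMM-normalized CPM of 8 genes in each library (points), with the mean and SD of the 3 libraries of a group (bars), each panel from 0. The groups do not overlap in any panel, and LDHA goes from 402 ± 9.20 to 853 ± 10.9 CPM while LDHB goes from 13.95 ± 0.446 to 7.76 ± 0.940 CPM.

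**Figure D3:**
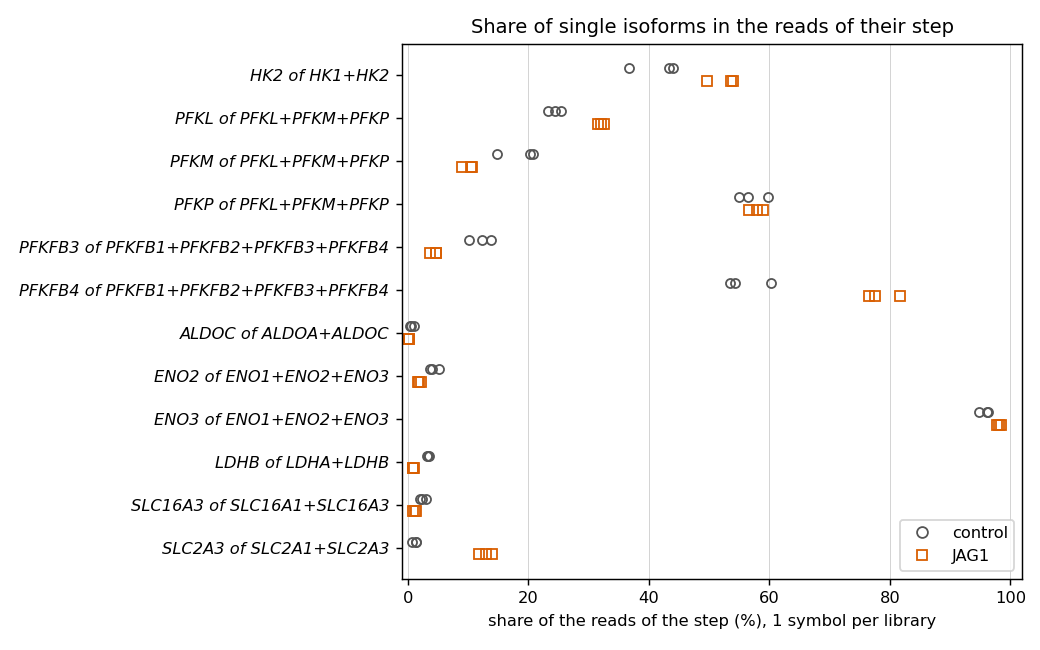
Share of single isoforms in the summed reads of their step (x axis, %), with 1 symbol per library. Control and JAG1-overexpressing libraries overlap for PFKP and for no other of the 12 shares, and the widest gap is that of PFKFB4, at 56.0% ± 3.72 and 78.6% ± 2.75. The enolase shares leave out the reads of ENO1B and are not shares of all enolase reads.

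The oxidative arm of the pentose phosphate pathway was mixed. PGD, or 6-phosphogluconate dehydrogenase, its second NADPH-forming enzyme, had 907, 838 and 794 CPM in control and 488, 495 and 489.8 CPM with JAG1. All JAG1-overexpressing libraries lay far below the control libraries. The fall was 1.72-fold (log2 fold change -0.79, SE 0.06, adjusted p = 4.37e-07). PGD lies at chr4:149149991-149166705 (GRCm38.p6), and no other gene matched its 3' end.

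G6PDX, glucose-6-phosphate dehydrogenase and the entry enzyme of the arm, fell from 48.0 ± 0.707 to 38.3 ± 1.05 CPM (log2 fold change -0.32, SE 0.06, adjusted p = 0.00114). PGLS, the lactonase between them, rose from 185 ± 8.11 to 252 ± 10.9 CPM (log2 fold change 0.45, SE 0.05, adjusted p = 3.57e-05). In sum the arm went from 1079 ± 51.8 to 782 ± 9.15 CPM, a ratio of 0.724, and most of these reads were PGD. IKBKG and FAM129C are annotated across the 3' ends of G6PDX and PGLS.

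In the non-oxidative arm the enzymes that act on ribulose 5-phosphate moved in opposite directions. RPIA, which isomerizes it to ribose 5-phosphate, had 21.4, 22.5 and 22.8 CPM in control and 37.6, 42.5 and 41.9 CPM with JAG1, a 1.82-fold rise (log2 fold change 0.87, SE 0.08, adjusted p = 3.11e-06). RPE, which epimerizes it to xylulose 5-phosphate, had 94.96, 93.6 and 91.9 CPM in control and 65.8, 56.9 and 61.7 CPM with JAG1, a 1.52-fold fall (log2 fold change -0.60, SE 0.07, adjusted p = 1.45e-05). Neither overlapped between the groups, and KANSL1L is annotated on the opposite strand across the 3' end of RPE. TKT, a transketolase, rose from 179.9 ± 12.8 to 223 ± 10.3 CPM (log2 fold change 0.31, SE 0.06, adjusted p = 0.00153). TALDO1, a transaldolase, had 302 ± 9.25 and 288 ± 17.6 CPM and was not called (log2 fold change -0.07, SE 0.06, adjusted p = 0.300). The sum of this arm was 598 ± 16.8 and 612 ± 29.1 CPM, which overlapped (exact permutation p = 0.4, n = 3).

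By step, the ratio of summed levels was highest for lactate dehydrogenase, at 2.07, followed by the glucose transporters at 1.91, the monocarboxylate transporters at 1.602 and the triose steps at 1.498. It was 1.36 for the aldolases, 1.33 for the PFKFB enzymes, 1.27 for GPI1 and 1.20 for PKM. The lowest ratios among the steps that were higher were those of phosphofructokinase 1 and the enolases, both 1.16, and of the hexokinases, 1.13. The libraries of the groups did not overlap at any of these steps (exact permutation p = 0.1 for each, n = 3), and the sums carry mainly the most abundant members. The enolase sum leaves out the 2 ENO1B rows, at 69.4 and 70.4 CPM in control and 86.8 and 91.6 CPM with JAG1. Its ratio is therefore not that of all enolase reads. The triose sum includes GAPDH, whose values are uncertain, and PGAM1, which went from 176 ± 3.61 to 322 ± 1.94 CPM. PGAM1 lies on chromosome 19, and minus the median of that chromosome its log2 fold change was 0.27.

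The shares of called genes in the lists that follow are read against 27.4% higher and 27.7% lower over all tested genes. Of 36 other genes of glucose and lactate handling, 19 were tested, and of these 9 rose and 6 fell (47.4% and 31.6%) with a median log2 fold change of 0.19. BPGM, which makes 2,3-bisphosphoglycerate, fell from 103 ± 2.60 to 24.3 ± 1.51 CPM (log2 fold change -2.09, SE 0.07, adjusted p = 1.08e-09). EMB, or embigin, a partner protein of monocarboxylate transporters, fell from 13.6 ± 0.743 to 0.110 ± 0.0778 CPM (log2 fold change -6.78, SE 0.25, adjusted p = 2.62e-09), with 4, 1 and 1 reads left in the JAG1-overexpressing libraries. The insulin-responsive transporter SLC2A4 fell from 3.94 ± 0.324 to 0.0764 ± 0.0206 CPM (log2 fold change -5.53, SE 0.34, adjusted p = 1.51e-07). SLC2A10, a transporter with 18, 10 and 23 reads in control, had 1, 0 and 0 reads with JAG1, a ratio of CPM of 44.9 with a 95% counting interval of 7.70 to 1808. These 3 transport genes passed the filter through their control libraries alone.

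The genes that rose most in this list were MINPP1 (log2 fold change 1.01, SE 0.18, adjusted p = 0.000682, and 0.40 minus the median of its chromosome, 19), GALM, PGP and MPC1, with log2 fold changes of 0.89, 0.78 and 0.54. GALM is a galactose mutarotase, PGP clears toxic side products of glycolysis, and MPC1 is a subunit of the mitochondrial pyruvate carrier. A list of 17 further genes covers the pentose phosphate pathway and nearby sugar phosphate metabolism. It includes phosphoglucomutases (PGM genes), glucose-6-phosphatases (G6PC genes) and the transporter SLC37A4, which are not pentose phosphate genes. Of the 17, 11 were tested, 4 rose and 2 fell (36.4% and 18.2%), with a median of 0.21, and 1 fell without JAG1 replicate 2. RBKS, or ribokinase, rose from 0.289 ± 0.134 to 1.98 ± 0.363 CPM (log2 fold change 2.74, SE 0.36, adjusted p = 6.63e-05), from 9, 4 and 4 reads in control, and passed the filter through the JAG1-overexpressing libraries alone. PGM2, PRPS1 and SLC37A4 rose by 0.41, 0.33 and 0.30 in log2, and PGM2L1 and PRPS2 had log2 fold changes of -0.50 and -0.23.

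Of 15 tested glycogen genes, 3 were higher and 5 lower (3 without control replicate 1 or JAG1 replicate 1), or 20% and 33.3%, with a median of -0.04. GYG, or glycogenin, the primer of glycogen synthesis, had 153, 181 and 191 reads in control and 1, 0 and 0 reads with JAG1, a ratio of CPM of 462 with a 95% counting interval of 82.6 to 18292 (adjusted p = 2.1e-08, edgeR). It passed the filter through its control libraries alone. PYGB, the brain glycogen phosphorylase, had a log2 fold change of -0.52, and the phosphorylase kinase subunits PHKB and PHKG1 had -0.67 and -0.74. GAA, the lysosomal glucosidase, and PHKA1, a phosphorylase kinase subunit, rose by 0.90 and 0.27 in log2.

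The transcription factor HIF1 drives many glycolysis genes under low oxygen, and its pathway and targets outside glycolysis went both ways, with 10 of 25 tested genes higher and 8 lower (40% and 32%) and a median of 0.17. Without control replicate 3, JAG1 replicate 1 or JAG1 replicate 3, 5 were lower. PDK1, a mitochondrial kinase that inhibits pyruvate dehydrogenase, had 0.543, 0.859 and 1.36 CPM in control and 8.52, 9.70 and 7.90 CPM with JAG1. Its rise was 9.43-fold (log2 fold change 3.24, SE 0.24, adjusted p = 6.53e-07). BNIP3, a mitophagy receptor, P4HA1, a collagen prolyl hydroxylase, and HIF1AN, a hydroxylase that inhibits HIF, rose by 0.97, 0.80 and 0.76 in log2. HIF1AN lies on chromosome 19, and minus its median the value was 0.15. EGLN3, a HIF prolyl hydroxylase and HIF target, fell from 11.9 ± 1.36 to 0.229 ± 0.0617 CPM (log2 fold change -5.63, SE 0.23, adjusted p = 5.86e-09) and passed the filter through its control libraries alone. LOX, or lysyl oxidase, fell from 470.0 ± 16.0 to 49.8 ± 2.01 CPM (log2 fold change -3.24, SE 0.06, adjusted p = 2.27e-11). NDRG1, on chromosome 15, and DDIT4, both stress-responsive genes, had log2 fold changes of -2.31 and -0.78, and minus the chromosome median NDRG1 was at -1.77. The growth factor gene VEGFA, another HIF target, was not called (log2 fold change 0.17, adjusted p = 0.0937, edgeR). HIF1A itself rose from 44.8 ± 2.39 to 58.2 ± 2.55 CPM (log2 fold change 0.38, SE 0.07, adjusted p = 0.000665, edgeR). ARNT, whose product pairs with that of HIF1A, rose by 0.27 in log2 (SE 0.07, adjusted p = 0.0108, edgeR). EPAS1 and HIF3A had too few reads to be tested.

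Among 24 other regulators of glucose use, 20 were tested, 7 rose and 3 fell (35% and 15%), with a median of 0.16. PPARGC1A, a coactivator of mitochondrial biogenesis, had 2 reads in each control library and 66, 33 and 62 reads with JAG1, or 0.104 ± 0.00440 and 3.11 ± 0.764 CPM (log2 fold change 4.83, SE 0.39, adjusted p = 1.47e-06), and passed the filter through the JAG1-overexpressing libraries alone. PRKAA2, a catalytic subunit of the energy sensor AMPK, rose from 0.483 ± 0.0803 to 7.54 ± 0.586 CPM (log2 fold change 3.95, SE 0.21, adjusted p = 3.69e-08, edgeR). Its control libraries had 0.444, 0.429 and 0.575 CPM, not all above the 0.529 CPM of the low-count filter. It thus passed the filter through its JAG1-overexpressing libraries. PRKAA1, the other catalytic subunit, fell from 38.2 ± 0.755 to 30.4 ± 0.668 CPM (log2 fold change -0.33, SE 0.07, adjusted p = 0.00167, edgeR) and lies on chromosome 15. Minus the median of that chromosome, the log2 fold change of PRKAA1 was 0.21, the opposite direction. MLXIP, a glucose-sensing factor, and AKT1, a kinase of insulin signaling, rose by 0.80 and 0.70 in log2. TXNIP, which limits glucose uptake, and KLF4 had log2 fold changes of -0.42 and -0.30. MYC, a driver of glycolysis genes, was not called (log2 fold change 0.29, SE 0.33, adjusted p = 0.485, edgeR). Its control libraries were spread widely, at 5.63, 10.6 and 18.2 CPM. MYC also lies on chromosome 15, and minus the median of that chromosome its log2 fold change was 0.82.

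**Figure D4:**
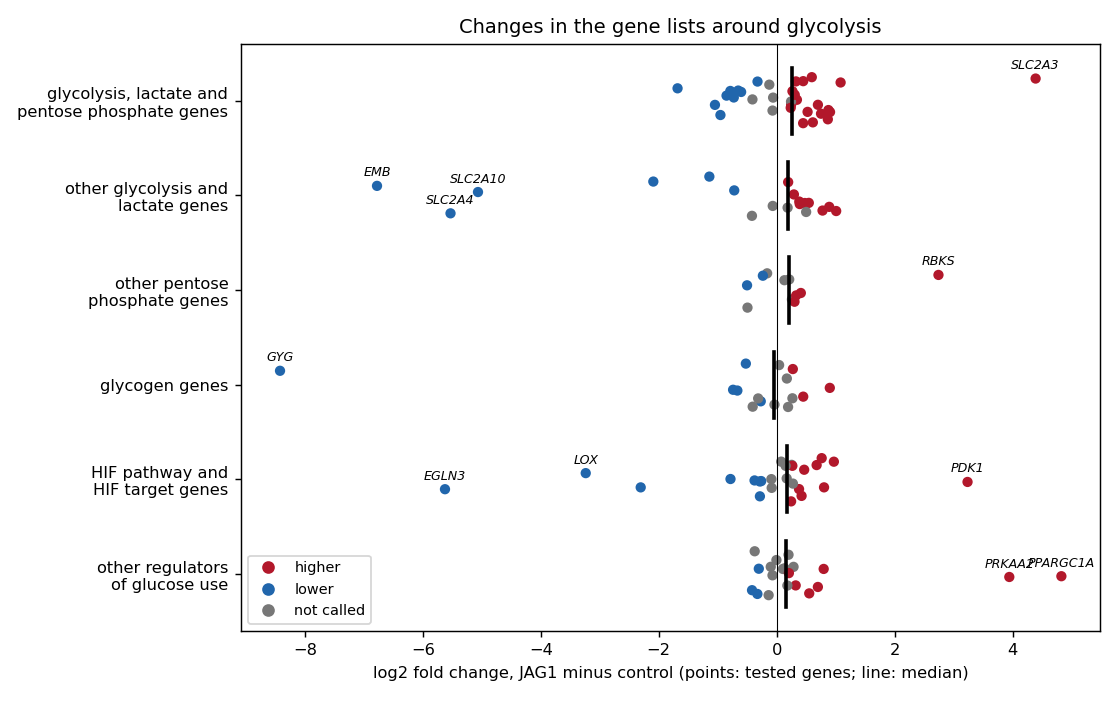
Log2 fold change of the tested genes (points) of 6 gene lists, with the median of each list (line) and colours for the edgeR call. The list labelled other pentose phosphate genes also holds genes of nearby sugar phosphate metabolism. The medians lie between -0.04 and 0.26, and single genes such as GYG, EMB, SLC2A3 and PPARGC1A lie far from them, GYG and SLC2A10 at fitted values that depend on the prior count because 1 group holds 1 read.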

How the data were processed

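RNA was measured with the QuantSeq 3' mRNA kit in 3 control and 3 JAG1-overexpressing libraries. The authors deposited, per library, raw read counts per gene and log2 values of a normalized count. The submitters' processing notes name Bowtie2, bedtools, edgeR, GRCm38 and mm10; their settings, the annotation, the use of strand and the treatment of reads with several matches are not given in the sources used here. The counts were analysed in R 4.3.3 with edgeR 4.0.16 (filterByExpr, minimum count 10, TMM, quasi-likelihood test, no covariates, Benjamini-Hochberg threshold 0.05). The fit was also run on simulated data, in which far fewer genes changed than the 55.1% called here and no chromosome was shifted. That simulation does not check the calls in a setting like this one. Standard errors came from the F statistic. Shares of isoforms and sums of steps were compared by exact two-sided permutation tests. The deposited log2 values served in an alternative with limma 3.58.1; another used DESeq2 1.42.0. The members, lists and tests were chosen with earlier results of these data known. Values in every library are given for called members with a log2 fold change of at least 0.5 in size and for the main isoform of a step, and from each other list the 4 largest called changes each way, except 1 gene that is not reported here; VEGFA, MYC and ENO1B were added after their values were seen. Symbols were matched to RefSeq (GRCm38.p6), 22059 by symbol, 1090 by synonym and 133 not. The 3' ends were compared with GENCODE M21 transcripts by BLAST 2.17.0. Counting intervals cover counting error only, and reads without molecular identifiers are not independent molecules.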

Additional observations from a re-analysis of the deposited data

How the results depend on the processing

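All 32 tested genes kept their call and direction under 15 alternatives: other normalizations and tests, other filters, removal of the ribosomal RN45S row, a replicate block, and each library left out in turn. At a log2 fold change of at least 1, 2 members were higher and 2 lower. In the other lists these counts were 1 and 5 (glucose and lactate), 1 and 0 (pentose phosphate and nearby), 0 and 1 (glycogen), 1 and 3 (HIF) and 2 and 0 (regulators). By library size alone 5 HIF genes were lower. With each library left out, 1 to 2 genes of the list of pentose phosphate and nearby genes were lower (1 without JAG1 replicate 2). The lower glycogen genes numbered 3 to 6 (3 without control replicate 1 or JAG1 replicate 1). The lower HIF genes numbered 5 to 7 (5 without control replicate 3, JAG1 replicate 1 or JAG1 replicate 3). Fewer samples were fitted in these cases. The PFKP share difference ran from -0.282 to 2.14 points and was -0.282 without control replicate 3. With the replicate block, 18 members were again higher and 9 lower; same-numbered libraries correlated by 0.148, 0.0614 and 0.119 in their deviations from the group means, so the numbers were not treated as pairs, although each control library correlated best with its own number. Low counts limit the precision of SLC2A3 in control and of ALDOC.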
